A study of Homo sapiens with 3 samples.

Results

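The genes described here are 45 genes of DNA damage signalling and DNA repair, taken by gene name from the 57820 genes in both deposited gene tables. The tables come from RNA immunoprecipitation and sequencing in ACHN cells, a long-established line from a human renal cell carcinoma, which stably expressed Flag-tagged MEX3A, a protein that binds RNA. Cells were fixed with 0.3% formaldehyde, the tagged protein and its RNA were captured with an anti-Flag antibody, and a second precipitate made with IgG gave the background of the method. There was 1 library for Flag (5498124 counts) and 1 for IgG (3412864 counts), both from cells that overexpress MEX3A-Flag. The labels do not say which promoter drives the transgene or whether the line is 1 clone. Input RNA was not analysed here, so each ratio compares 1 precipitate with the other and not with the level in the cells.

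Cells answer DNA breaks with kinases that halt the cell cycle and with several repair routes. Double-strand breaks are resected and repaired by homologous recombination with a sister chromatid as template, or are rejoined directly by end joining. Crosslinks between strands are handled by the Fanconi anaemia pathway, mispaired bases by mismatch repair, bulky lesions by nucleotide excision repair and single-strand breaks by a short route around XRCC1. MEX3A carries KH domains and binds mRNA. The members were sorted into these 8 routes, with the kinases and the end resection factors as routes of their own.

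The level of a gene in a library is given as CPM, its counts divided by the library total and scaled, and Flag over IgG is the ratio of its CPM values with an exact 95% counting interval. A gene was called enriched where the whole interval lay above 2 and depleted where it lay below 0.5. With 1 library per group there is no replicate check and no p-value. MEX3A's own mRNA had 103 counts in Flag and 5 in IgG, and was enriched (12.8, interval 5.31 to 40.2). The renal transcription factor genes PAX2 and PAX8 and the epithelial keratin genes KRT8 and KRT18 were detected in both libraries, while PTPRC, CD3E, CDH5 and ALB, markers of other cell types, had 0 counts in both. RNAs encoded by mitochondria made up 33% of Flag and 8.93% of IgG counts, a difference that enters every ratio made with library totals, and its part in the results was not tested.

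All 45 members had counts in the Flag library, and 43 reached the 20 counts over both libraries needed to enter. Of these 43, 15 were enriched (34.9%), 1 was depleted and 27 were neither. Among all 10811 genes that entered, 28.7% were enriched and 1.32% depleted. The members' median ratio was 2.17, beside 1.93 over all genes, and 25 of 43 lay above the median of all genes. As a group the repair mRNAs therefore stood close to the background of these libraries, and the values below describe how far single members lay from it. Because the median gene itself had a ratio near 2, a ratio of that size is the middle of these libraries and not a mark of a member.

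**Figure D1:**
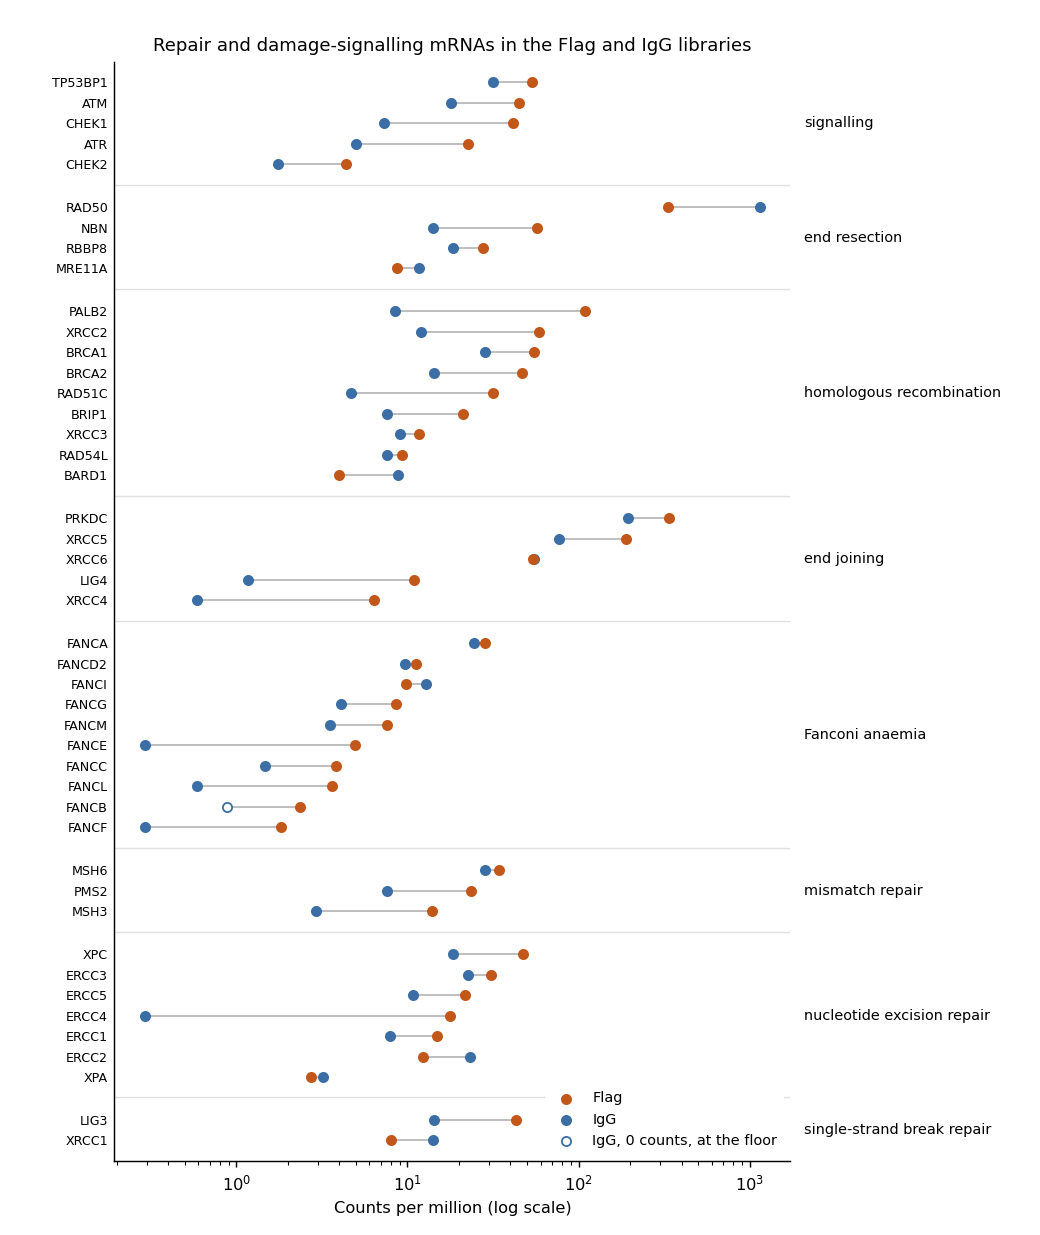
CPM (log axis) of the 45 members in the Flag library (orange) and the IgG library (blue), by repair route, 1 library each; the open circle is FANCB at the floor of 3 counts in IgG, and the lines join the values of a gene. RAD50 has the highest level in IgG, at 1144 CPM, and is lower in Flag, at 334 CPM. PALB2, ERCC4 and LIG4 are among the members whose Flag value lies far to the right of their own IgG value.

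RAD50, the ATPase of the MRN complex that senses and tethers broken ends, was the only depleted member. It had 1838 counts in Flag and 3904 in IgG, or 334 and 1144 CPM, a ratio of 0.292 (interval 0.276 to 0.309). This places it at percentile 1.18 of all genes that entered. On the scale of TPM, which divides by transcript length, RAD50 had the highest level of all members in both libraries, with 82.4 TPM in Flag and 283 TPM in IgG. It held 11.3% of the members' summed TPM in Flag and 47.7% in IgG. All members together took 0.189% of counts in each library, a summed ratio of 1.00. Without RAD50 the summed ratio was 2.08, so this gene decides the summed level.

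The other proteins of end resection had mRNAs with unlike ratios. NBN encodes NBS1, the MRN subunit that recruits ATM. It had 313 counts in Flag and 48 in IgG, and was enriched at 4.05 (2.98 to 5.61). MRE11A, the nuclease of the same complex, had 48 counts in Flag and 40 in IgG, a ratio of 0.745 whose interval (0.479 to 1.16) holds 1. RBBP8 encodes CtIP, which starts resection, and had 152 counts in Flag and 63 in IgG (1.5, 1.11 to 2.04). The 3 subunits of MRN thus spanned the members' lowest ratio and an enriched one. A scaling of the libraries cannot change the comparison of 2 genes with each other: the ratio of NBN was 13.9 times that of RAD50 (10.1 to 19.3) and 5.43 times that of MRE11A (3.12 to 9.40), and that of MRE11A was 2.55 times that of RAD50 (1.63 to 3.99).

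Of the 5 signalling members 2 were enriched, CHEK1 and ATR, beside 28.7% of all genes. With TMM scaling 1 of the 5 was, beside 12.0% of all genes. CHEK1, the effector kinase downstream of ATR, had 229 counts in Flag and 25 in IgG, a ratio of 5.69 (3.75 to 8.97). ATR, the kinase activated by single-stranded DNA, had 125 counts in Flag and 17 in IgG (4.56, 2.74 to 8.08), a call lost with TMM and median-of-ratios scaling and with TPM. Neither ATM, the kinase that answers double-strand breaks, nor its effector was called: ATM had 246 counts in Flag and 61 in IgG (2.50, 1.88 to 3.37), and CHEK2 had 24 in Flag and 6 in IgG (2.48, 0.989 to 7.43). TP53BP1, a chromatin reader that restrains resection, had 295 counts in Flag and 108 in IgG (1.70, 1.36 to 2.13). The intervals of ATR and ATM overlap, and whether these 2 kinases differ was not tested. With TPM their order was reversed, at 1.17 for ATR and 2.02 for ATM.

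Homologous recombination held 4 of the 15 enriched members among its 9 genes, beside 28.7% of all genes. Its median ratio was 2.77, beside 1.93 over all genes. PALB2, which bridges BRCA1 and BRCA2, had 602 counts in Flag and 29 in IgG, or 109 and 8.50 CPM, a ratio of 12.9 (8.88 to 19.4) at percentile 96.8 of all genes. BRCA2, a mediator of strand exchange, had 256 counts in Flag and 49 in IgG (3.24, 2.38 to 4.50). BRCA1, the ubiquitin ligase of the same axis, had 301 counts in Flag and 97 in IgG (1.93, 1.53 to 2.45), the ratio of the median gene. BARD1, its obligate partner, was lower in Flag, with 22 counts against 30 in IgG (0.455, 0.250 to 0.816), and was not called. Along this chain of partners the order was PALB2, BRCA2, BRCA1 and BARD1, and the intervals of BRCA2 and BRCA1 overlap slightly.

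Further genes that act in strand exchange differed too. RAD51C had 173 counts in Flag and 16 in IgG (6.71, 4.02 to 12.0), and XRCC2 had 323 in Flag and 41 in IgG (4.89, 3.53 to 6.94). Both were enriched. XRCC3, with 64 counts in Flag and 31 in IgG, was not (1.28, 0.822 to 2.04). RAD54L, the motor of strand invasion, had 51 counts in Flag and 26 in IgG (1.22, 0.745 to 2.03), and the helicase gene BRIP1 had 116 in Flag and 26 in IgG (2.77, 1.80 to 4.42). Neither was called.

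**Figure D2:**
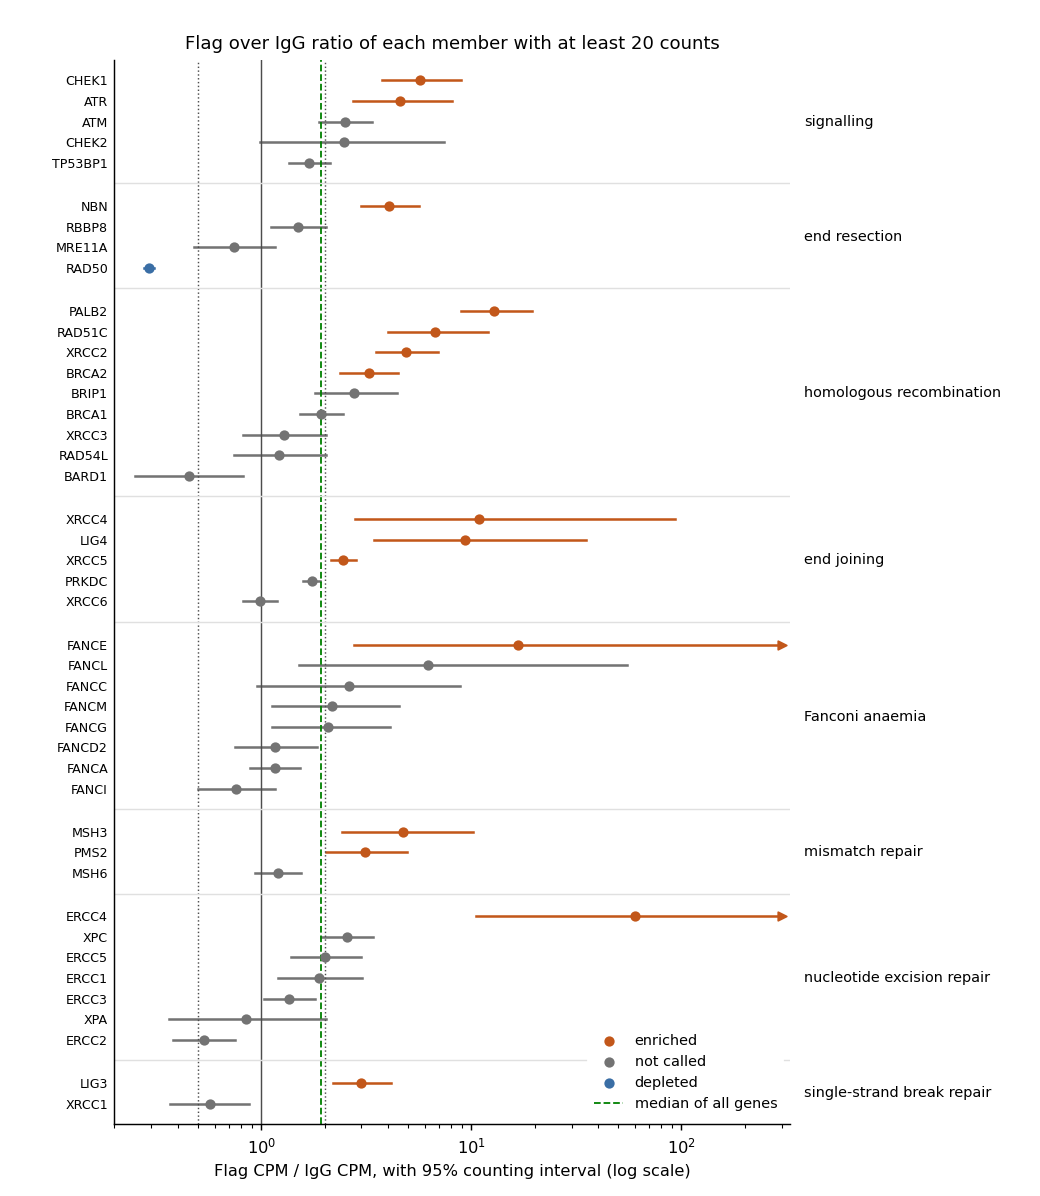
Ratio of Flag CPM to IgG CPM (log axis) with its 95% counting interval for the 43 members that entered, by repair route; dotted lines mark 0.5 and 2, the solid line 1 and the green dashed line the median of all genes at 1.93, and arrows mark intervals that run past the axis. RAD50 alone lies wholly below 0.5, and 15 members lie wholly above 2.

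In end joining, 3 of 5 members were enriched, beside 28.7% of all genes. With TMM scaling 1 of the 5 was, beside 12.0% of all genes. The DNA ligase gene LIG4 had 60 counts in Flag and 4 in IgG (9.31, 3.45 to 35.3), and XRCC4, which encodes the scaffold of that ligase, had 35 in Flag and 2 in IgG (10.9, 2.79 to 93.2). Both rest on very few IgG counts, and the wide intervals carry this. XRCC5, which encodes the larger Ku subunit, had 1042 counts in Flag and 264 in IgG (2.45, 2.14 to 2.81). XRCC6, the other Ku subunit, had almost equal levels, at 54.2 CPM in Flag and 54.8 CPM in IgG (0.989, 0.821 to 1.19). The Ku subunits bind DNA as a pair, but the ratio of XRCC5 was 2.48 times that of XRCC6 (1.96 to 3.13). PRKDC, the catalytic subunit of the kinase that Ku recruits, had 1861 counts in Flag and 666 in IgG (1.73, 1.59 to 1.90) and was not called.

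The Fanconi anaemia genes were thinly covered. Of 10, 8 entered and 1 was enriched, beside 28.7% of all genes. This was FANCE of the core complex, with 27 counts in Flag and 1 in IgG (16.8, 2.76 to 686). FANCB and FANCF did not enter. FANCB had 13 counts in Flag and 0 in IgG, and the lower bound of its interval was 1.89. With a floor of 3 counts in place of the 0, its ratio was 2.69. FANCF had 10 in Flag and 1 in IgG (6.21, 0.883 to 269). FANCL, the ubiquitin ligase of the core complex, had 20 counts in Flag and 2 in IgG (6.21, 1.51 to 54.8). Its targets FANCD2 (62 counts in Flag and 33 in IgG) and FANCI (54 in Flag and 44 in IgG) had ratios of 1.17 and 0.762, and both intervals hold 1. FANCA had 157 counts in Flag and 84 in IgG (1.16, 0.885 to 1.53). FANCC (2.61, 0.957 to 8.85), FANCG (2.08, 1.13 to 4.10) and FANCM (2.17, 1.12 to 4.53) had at most 47 counts in Flag and 14 in IgG, and their intervals lie on both sides of 2.

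In mismatch repair, 2 of 3 members were enriched, beside 28.7% of all genes. With TMM scaling 0 of the 3 were, beside 12.0% of all genes. MSH3 was enriched with 76 counts in Flag and 10 in IgG (4.72, 2.43 to 10.2). PMS2, of the MutL complex, was enriched with 130 in Flag and 26 in IgG (3.10, 2.03 to 4.93). MSH6, of the complex that finds single mispaired bases, had 188 counts in Flag and 97 in IgG (1.20, 0.937 to 1.55). All 3 had fractional counts, meaning that reads were divided with other genes. Summed with its pseudogenes, PMS2 had a ratio of 2.48 (1.90 to 3.29), which is not past the threshold.

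Nucleotide excision repair had 1 enriched member among 7, beside 28.7% of all genes. ERCC4, which encodes the catalytic subunit XPF of the nuclease that cuts on the 5′ side of a lesion, had 97 counts in Flag and 1 in IgG, the highest ratio of the members at 60.2 (10.6 to 2402), with fractional counts. ERCC1, the partner of XPF, had 82 counts in Flag and 27 in IgG (1.89, 1.21 to 3.03). The lesion sensor gene XPC had 259 in Flag and 63 in IgG (2.55, 1.93 to 3.42), just short of a call. ERCC5, of the nuclease on the other side, had 120 in Flag and 37 in IgG (2.01). The helicase genes of TFIIH lay lower, with 68 counts in Flag and 79 in IgG for ERCC2 (0.534, 0.381 to 0.748) and 169 in Flag and 77 in IgG for ERCC3 (1.36, 1.03 to 1.81). XPA had 15 counts in Flag and 11 in IgG (0.846, 0.363 to 2.04).

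For single-strand breaks, LIG3, a DNA ligase gene, had 236 counts in Flag and 49 in IgG (2.99, 2.19 to 4.15) and was enriched. The scaffold gene XRCC1, whose protein binds that ligase, was lower in Flag, with 44 counts against 48 in IgG (0.569, 0.369 to 0.875), and was not called. The ratio of LIG3 was 5.25 times that of XRCC1 (3.04 to 9.04).

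**Figure D3:**
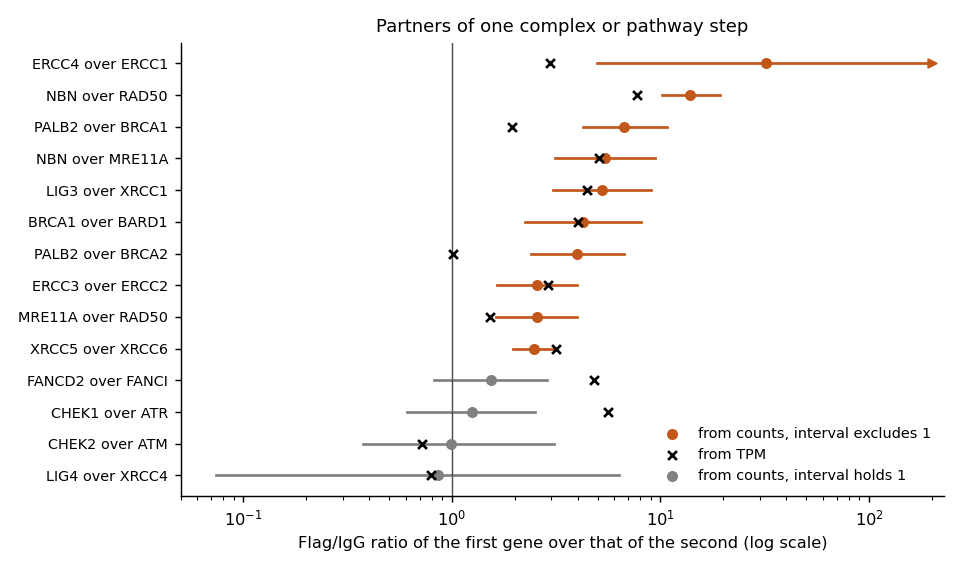
Flag over IgG ratio of the first gene divided by that of its partner (log axis), with the 95% conditional interval from the 4 counts (lines and filled circles) and the same from TPM (crosses), for 14 pairs that share a complex or a pathway step. In 10 pairs the interval from counts excludes 1, and the TPM value of all 10 lies on the same side, though that of PALB2 over BRCA2 is 1.01.

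Partners were set side by side in 14 pairs, chosen after the values were seen and oriented mostly with the higher gene first. The interval excluded 1 in 10 of them. It held 1 for LIG4 over XRCC4 (0.857, 0.0741 to 6.35), CHEK1 over ATR (1.25, 0.606 to 2.50), CHEK2 over ATM (0.992, 0.373 to 3.10) and FANCD2 over FANCI (1.53, 0.823 to 2.85). From TPM, with no interval, these 4 pairs stood at 0.791, 5.58, 0.716 and 4.82 in the same order. Because of the way the pairs were chosen, and because unrelated pairs were not measured, the count of 10 says nothing about complexes in general. BRCA1 over BARD1 was 4.23 (2.24 to 8.06) and ERCC3 over ERCC2 was 2.55 (1.64 to 3.97).

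Across routes, median log2 ratios ran between 0.08 for end resection and 1.63 for mismatch repair, beside 0.95 for all genes. Homologous recombination stood at 1.47, signalling at 1.32, end joining at 1.29, the Fanconi anaemia genes at 1.09, nucleotide excision repair at 0.91 and single-strand break repair at 0.38. The routes hold between 2 and 9 members that entered, and the spread within a route exceeded the distance between routes: in end joining alone the ratios ran between 0.989 and 10.9. The order of the routes is a description of these members and was not tested.

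**Figure D4:**
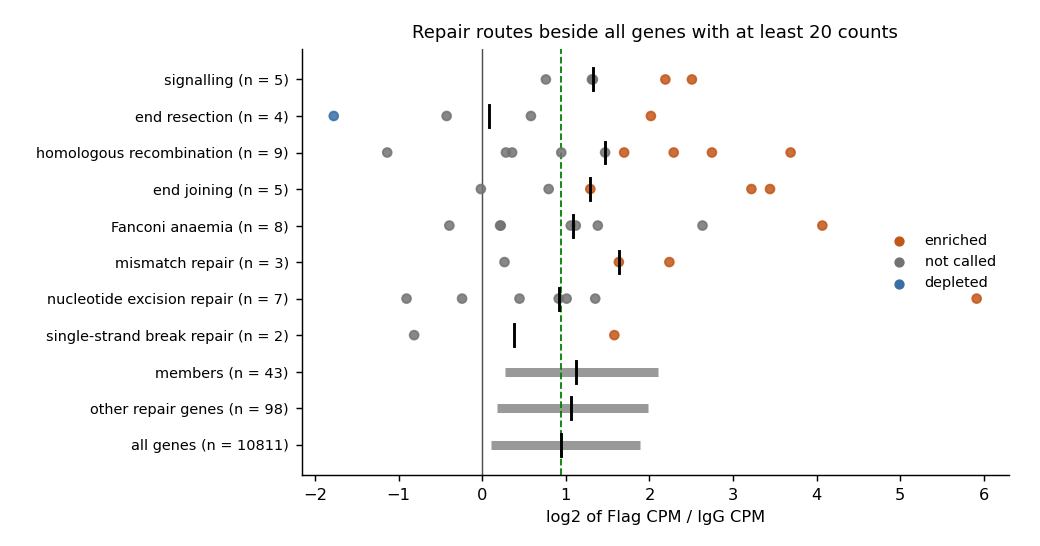
Log2 of Flag CPM over IgG CPM for each member (points) by repair route, with the median of each row as a black bar; the grey bars at the bottom span the quartiles of the 43 members, of 98 other repair genes and of all 10811 genes that entered, and the green dashed line is the median of all genes. The members' quartiles, at 0.28 and 2.10, lie close to those of all genes, at 0.10 and 1.88.

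The scale decides how many members are called. TMM scaling, which assumes that most genes do not differ, lowered every log2 ratio by the same amount. With it 6 members stayed enriched, beside 12.0% of all genes: PALB2, RAD51C, CHEK1, XRCC2, LIG4 and ERCC4. RAD50, BARD1 and ERCC2 were then depleted, beside 6.12% of all genes. Of the 43, 8 moved to the other side of a ratio of 1. Median-of-ratios scaling kept 5 of these 6 enriched, LIG4 being lost, beside 11.7% of all genes, and the same count of 3 depleted, beside 6.24%. PALB2, RAD51C and ERCC4 kept their calls under every alternative in which they entered, and they alone were enriched at a threshold of 4-fold, beside 8.55% of all genes. RAD50 was depleted under each alternative except the 4-fold threshold, where 0.222% of all genes and 0 members were.

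The deposited tables also give a length per gene, which is the mean length of its transcripts weighted by how the reads of that library were assigned to isoforms. It differed between the libraries by more than 1.5 times for 13 members, with 8 longer and 5 shorter in Flag. Over all genes the lengths were that much longer in Flag for 15.3% and shorter for 8.51%. TPM divides by this length, so the ratio of TPM values (0.1 added to each) departs from that of counts for these members. ERCC4 had a length of 4770 bases in Flag and 604 bases in IgG, where it rests on 1 count, and its ratio was 4.91 with TPM. ATR had 5364 bases in Flag and 1523 in IgG, and its TPM levels, 4.35 in Flag and 3.70 in IgG, gave a ratio of 1.17, so its enrichment is seen with counts alone. PALB2 had 3612 bases in Flag and 1541 in IgG, and stayed at 5.03 with TPM.

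The 5 members with the shorter length in Flag went the other way. FANCD2 had 1579 bases in Flag and 4942 in IgG, and TPM levels of 8.02 in Flag and 2.01 in IgG gave 3.85, against 1.17 from counts. FANCM reached 4.51, BRCA2 4.97, MSH6 2.35 and RAD51C 11.3 with TPM. By TPM alone, with no interval, 24 of 43 members lay above 2, beside 44.2% of all genes, and 4 lay below 0.5, beside 6.59%: RAD50, MRE11A, ERCC2 and XRCC1. With 1 added in place of 0.1, 22 members lay above 2, beside 37.7% of all genes, and 2, RAD50 and MRE11A, below 0.5, beside 4.96%. Isoform shares were not used here, and whether the isoforms truly differ between the precipitates was not tested.

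**Figure D5:**
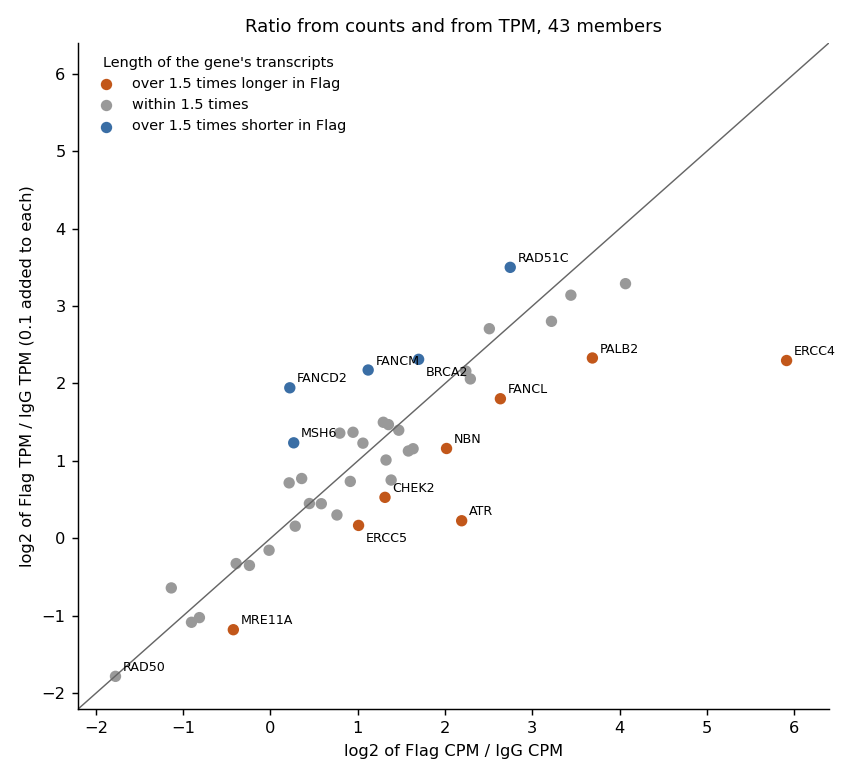
Log2 of the Flag over IgG ratio from CPM (horizontal) and from TPM with 0.1 added to each library (vertical) for 43 members; orange marks members whose length is over 1.5 times longer in Flag, blue those over 1.5 times shorter, grey the rest, and the line marks equal values. ERCC4, ATR and PALB2 lie furthest below the line and FANCD2 furthest above it, while RAD50 lies on it.

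Longer transcripts had somewhat higher ratios. Over 43 members Spearman's rho between the mean of both lengths and the log2 count ratio was 0.14, and over all 10811 genes 0.18; genes share the libraries and are not independent. Members under 2000 bases had 3 of 15 enriched, those of 2000 to 4000 bases 9 of 21 and those over 4000 bases 3 of 7. Among all genes the shares were 22.3%, 32.4% and 40% in the same 3 classes.

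Several members overlap another gene, by the gene spans of the RefSeq table provided, and without a stated strand setting reads of overlapping genes cannot be told apart. Adding the reads of overlapping genes or copies changed the call of XRCC3, XPA and FANCL, whose sums were enriched, and of PMS2, which lost its call. MRE11A, with ANKRD49 (53 counts in Flag and 0 in IgG) added, had a ratio of 1.57 (1.08 to 2.32) in place of 0.745. XRCC3 with KLC1 added stood at 2.73 (2.32 to 3.22), XPA with NCBP1 at 2.86 (2.0 to 4.17), FANCL with VRK2 at 18.9 (7.21 to 70.6) and RAD54L with LRRC41 at 0.658 (0.495 to 0.875). ERCC5 shares exons with the readthrough gene BIVM-ERCC5, and their sum had a ratio of 1.58 (1.18 to 2.13). RAD50, PALB2, RAD51C, XRCC2, LIG4 and ERCC4 had no overlapping gene with counts.

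Genes of the same routes that are not members were taken from a list of 108 symbols, of which 106 were in the tables and 98 entered. Of these, 24 (24.5%) were enriched and 0 depleted, beside 28.7% and 1.32% of all genes, with a median log2 ratio of 1.06, beside 0.95. MNAT1, of the kinase module of TFIIH, had 224 in Flag and 4 in IgG (34.8, 13.4 to 128.7). CLSPN, the adaptor through which ATR activates CHEK1, was lower in Flag, with 500 counts against 591 in IgG (0.525, 0.465 to 0.593). C17orf70, of the Fanconi core complex, had 66 in Flag and 79 in IgG (0.519, 0.368 to 0.728). Neither of these 2 was called. By route, to be read against the same 28.7%, 9 of 17 such genes of nucleotide excision repair were enriched, 5 of 17 of base and single-strand break repair, 3 of 18 of homologous recombination, 2 of 9 of the Fanconi anaemia pathway, 2 of 5 of mismatch repair and 1 each of 18, 9 and 5 in signalling, end joining and end resection.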

How the data were processed

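RNA immunoprecipitates of ACHN cells were analysed from 2 deposited gene tables, 1 per library (Flag and IgG). The authors' expected counts are estimates of the reads of each gene in the gene layout of RSEM, with no normalization, per the file headers. The TPM values were deposited by the authors, scaled by effective length, per the file headers. Per the submitters' processing notes, RSEM and STAR were used with GRCh37 or hg19, and no version is named. Which annotation and strand setting served is not given in the sources used here. The deposited FPKM values were not used.

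Counts were rounded, and CPM was computed over the totals of 5498124 (Flag) and 3412864 (IgG). A gene entered where both libraries together held at least 20 counts. Exact 95% Clopper-Pearson intervals of the ratio came from the Flag share of a gene's counts (scipy 1.17.1), and the same script was tested on simulated data. Pairs of genes were compared by dividing their Flag over IgG ratios, with the 95% interval of the conditional odds ratio. A floor of 3 counts stood in for 0 (0.546 CPM in Flag, 0.879 CPM in IgG). Reads carry no molecular identifiers, so what these bounds cover is counting error alone. Fractional means off a whole number by more than 0.01 in either library.

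Members and gene lists were chosen with earlier results of these data known. All members are accounted for; of the other repair genes, those 2 with the highest lower bound and those 2 with the lowest upper bound were to be named, and 1 of them is not reported here. Alternatives were TMM by edgeR 4.0.16, the size factors of DESeq2 1.42.0, other totals, filters, thresholds and intervals, 0.5 counts added, whole counts only and TPM with 0.1 or 1 added. Overlaps came from a RefSeq table of GRCh38.p14, another build, so no coordinates are given.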

Additional observations from a re-analysis of the deposited data

How the results depend on the processing

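No paired analysis was possible because each group has 1 library. Log2 medians are given throughout. TMM scaling lowered every log2 ratio by 0.78 (a change of -0.78), median-of-ratios scaling by 0.79 (-0.79) and leaving mitochondrial RNAs and the 10 most abundant genes out of the totals by 0.24 (-0.24), and the cause of each shift was not tested. TMM gave 6 members enriched and 3 depleted, and 12 and 2 of 98 other repair genes, beside 12.0% and 6.12% of all genes. Medians were then 0.34 for the members, 0.55 for signalling, -0.70 for end resection, 0.69 for homologous recombination and 0.51 for end joining. Mismatch repair stood at 0.86, nucleotide excision repair at 0.14 and single-strand break repair at -0.40. Median-of-ratios scaling gave 5 and 3 members and 12 and 2 other repair genes, beside 11.7% and 6.24% of all genes. The medians with it were 0.33, 0.53, -0.71, 0.68, 0.50, 0.84, 0.12 and -0.41 in the same order. Those reduced totals gave end joining 1.06. TPM with 0.1 added gave 24 and 4 members and 51 and 3 of 98 other repair genes, beside 44.2% and 6.59% of all genes. Signalling then stood at 0.53 and end joining at 1.5. With 1 added, 2 members were depleted. This setting called 42 and 2 other repair genes, beside 37.7% and 4.96% of all genes, and signalling stood at 0.44. At a minimum of 100 counts 12 of 41 other repair genes were enriched, beside 37.9% of all genes, and medians were 0.79 for end joining, 0.95 for mismatch repair and 1.58 for the 1 remaining member of single-strand break repair. Whole counts alone gave 0.10 for nucleotide excision repair, with the fractional ERCC1, ERCC4 and ERCC5 left out. A threshold of 1.5-fold called 43 and 1 of 98 other repair genes, beside 40% and 2.76% of all genes. One of 4-fold called 3 and 0 members and 9 other repair genes, beside 8.55% enriched and 0.222% depleted of all genes. Of the 15 enriched members, 14 kept the call with TPM, ATR being lost. No member changed from enriched to depleted or the reverse under any of the 12 alternatives.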

Other observations

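Some genes around the damage recognition step of nucleotide excision repair, named after their values were seen, had unlike ratios. RAD23B, the main partner of XPC, had 790 counts in Flag and 99 in IgG (4.95, 4.01 to 6.17). CETN2, the third protein of that complex, had 28 in Flag and 0 in IgG (lower bound 4.41). With the floor of 3 counts in place of the 0, the ratio of CETN2 was 5.79. The lesion sensor genes DDB1 (0.934, 0.739 to 1.18) and DDB2 (0.491, 0.255 to 0.936), which act before XPC on ultraviolet damage, were not called. In the transcription-coupled branch, ERCC6, with fractional counts, was enriched with 70 counts in Flag and 4 in IgG (10.9, 4.06 to 41.0). ERCC8 of that branch, with 13 counts in Flag and 1 in IgG, did not enter. UVSSA (1.33) and XAB2 (0.849), of the same branch, were not called.

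TFIIH is the complex that opens DNA at a lesion. Of the 5 GTF2H genes of its core, also named after their values were seen, 3 were enriched, beside 28.7% of all genes. GTF2H2, with fractional counts, had 74 counts in Flag and 9 in IgG (5.10, 2.55 to 11.6), GTF2H3 had 321 counts in Flag and 34 in IgG (5.86, 4.11 to 8.61) and GTF2H5 had 26 in Flag and 1 in IgG (16.1, 2.65 to 662), while GTF2H1 (2.23) and GTF2H4 (1.41) were not called. CDK7, the kinase of the complex, had 230 counts in Flag and 6 in IgG (23.8, 10.8 to 65.5), while its cyclin gene CCNH, with fractional counts, had 67 in Flag and 20 in IgG (2.08, 1.25 to 3.62). From counts, the ratios of ERCC2 and ERCC3 lay below all of these, but the interval of GTF2H4 (0.746 to 2.78) holds that of ERCC3. With TPM, GTF2H4 (0.804) lay below ERCC3 (1.37).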
